A study of Aspergillus niger with 6 samples.

Results

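The cellobiohydrolase genes of Aspergillus niger form a group of 4, with 2 genes in each of 2 glycoside hydrolase families. They were taken by their identifiers: cbhA (An07g09330) and cbhB (An01g11660) of family GH7, and An08g01760 and An12g02220 of family GH6. All 4 were found among the 15431 genes listed, and all 4 passed the filter on low counts that left 6181 genes for testing. Transcripts were counted by RNA sequencing of mycelium of the laboratory strain N402 from 6 shake flask cultures, 2 (A and B) for each of 3 conditions. In the first condition, mycelium spent 24 h on ball-milled willow wood and a further 5 h after glucose was added. In the second, it spent 24 h on willow without glucose. In the third, it was collected after 48 h on glucose. Both willow conditions began with the same 48 h on glucose, after which 1.5 g of washed wet mycelium was moved to new flasks. Flasks held 100 ml and were kept at 28 °C, with 1% glucose in the glucose cultures and 1% willow in the willow cultures. The amount of glucose added to the willow cultures is not given here. Whether A and B share a spore stock or a day is not stated, so the spread between them may hold less than the spread between independent experiments.

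Cellulose is a polymer of glucose packed into crystalline fibrils. Cellobiohydrolases move along a chain and release the disaccharide cellobiose, enzymes of family GH7 mainly from the reducing end and those of family GH6 from the non-reducing end. Endoglucanases cut inside chains and make new ends for them, and beta-glucosidases split the cellobiose to glucose. In A. niger, cbhA and cbhB are known as targets of the activator XlnR, and CreA is known as a repressor of cellulase genes while glucose is at hand.

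Reads assigned to genes numbered 434508 to 775667 per library, which is 1.46% to 3.15% of all reads. Multiply aligned reads made up 58.4% to 75.7%. In the willow cultures with and without added glucose, replicate B had fewer gene reads and a lower assigned share (1.59% against 3.15% in replicate A after glucose addition, 1.46% against 2.32% on willow), while the glucose cultures had 2.97% and 2.99%. Total RNA was depleted of ribosomal RNA before sequencing. Levels are given as CPM, counts scaled to a common library size after correction by trimmed means (TMM). Levels of the members are compared with each other as CPM per kb of the gene model. Ranks by count and the counts and CPM of other genes are not divided by length. The level of a bulk culture does not tell more transcript in each hypha from more hyphae that make it. Of 5 identifiers listed as genes of conidiation, which would mark sporulating hyphae, the summed level was 342 to 396 CPM after glucose addition, 446 to 507 CPM on willow and 230 to 293 CPM on glucose. Of the 5, 1 was without a count in 1 willow library. Those left out by the filter on low counts had low levels that went both ways between willow and glucose. Mean levels on willow against glucose were 17.5 against 2.50 CPM for An01g10540, 7.71 against 8.95 CPM for An01g03750 and 1.09 against 6.89 CPM for An01g08900. The 2 identifiers that passed the filter made up most of the sum. One of those, An09g05730, was higher on willow than on glucose (1.31 ± 0.35, edgeR adjusted p = 0.00560), a call lost without glucose replicate A (1.16, adjusted p = 0.0566), with total counts as the library size (0.88, adjusted p = 0.0529) and on the deposited RPKM values (0.16, limma-trend adjusted p = 0.857). The other of the 2, An05g00480, was the largest part of the sum, at 217 CPM after glucose addition, 278 CPM on willow and 174 CPM on glucose. It was not called between willow and glucose (0.68 ± 0.32, edgeR adjusted p = 0.120). The part of sporulating hyphae in the results was not tested.

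Together, the 4 genes took a far larger share of gene reads on willow than in either other condition. They held 0.147% (A) and 0.103% (B) of gene reads after glucose addition. On willow they held 5.32% (95% Wilson interval 5.27% to 5.38%) and 4.40% (4.34% to 4.46%). On glucose they held 0.0121% (0.00970% to 0.0151%) and 0.0120% (0.00977% to 0.0147%). The interval after glucose addition was 0.139% to 0.156% for A and 0.0940% to 0.113% for B, so that no interval of one condition met that of another. These intervals cover counting error only.

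**Figure D1:**
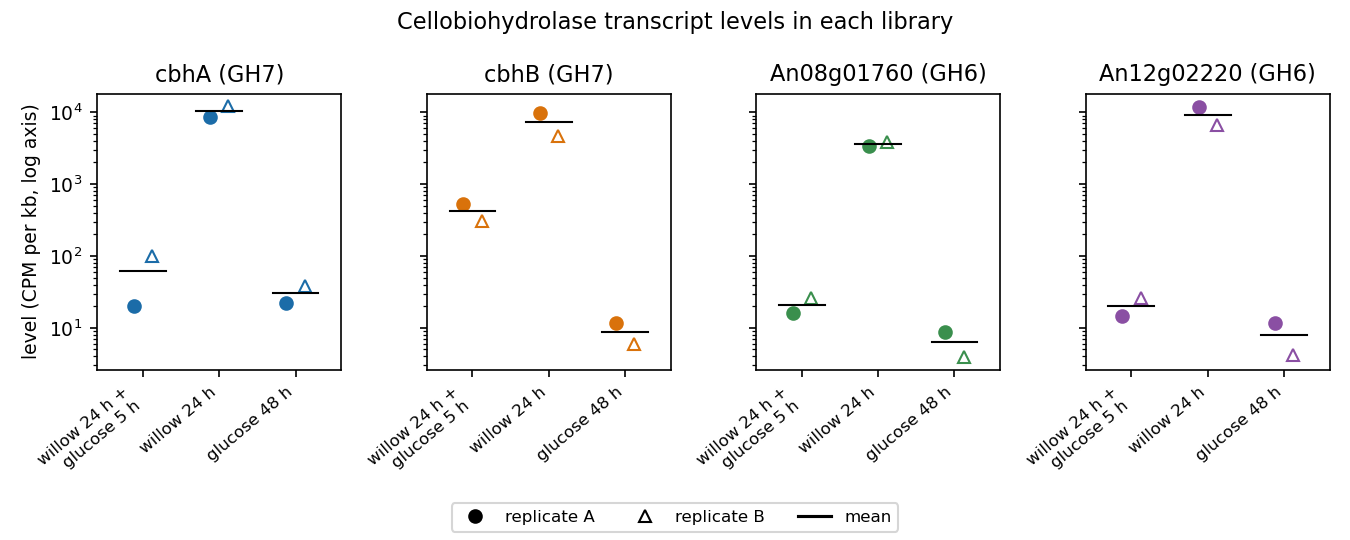
Level of each of the 4 genes (CPM per kb, log axis) in every library of the 3 conditions, with filled circles for replicate A, open triangles for replicate B and a line for the mean of both. All 4 genes are highest on willow, and cbhB alone lies well apart from its glucose level 5 h after glucose addition.

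The first comparison asked how the genes differed between mycelium on willow for 24 h and mycelium on glucose for 48 h. All 4 were higher on willow, by 342-fold (cbhA) to 1169-fold (An12g02220), and were among the most abundant transcripts there. Carbon source, transfer and the further 24 h differed together between these conditions and cannot be told apart.

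Of the GH7 pair, cbhA had 8802 and 9740 counts in the willow libraries A and B, against 36 and 70 in the glucose libraries. The mean level ± SD (n = 2 here and for every level with an SD) was 23059 ± 5510.5 CPM on willow and 67.0 ± 24.9 CPM on glucose. It was the 7th and the 3rd most counted gene of the willow libraries A and B, and the 2781st and 1873rd of the glucose libraries. Per kb it ranked 14th and 7th on willow, and 3947th and 2728th on glucose. The second GH7 gene, cbhB, had 11249 and 4180 counts on willow, against 21 and 12 on glucose. Its level was 18029 ± 9137 CPM on willow and 21.7 ± 10.1 CPM on glucose, and its willow libraries differed 2.12-fold from each other. Both genes had willow and glucose values far apart.

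Of the GH6 pair, An12g02220 had 7702 and 3451 counts in willow libraries A and B, against 12 and 5 in glucose libraries. Its level was 13159 ± 5103 CPM on willow and 11.3 ± 7.36 CPM on glucose. The other GH6 gene, An08g01760, had 1907 and 1743 counts, against 8 and 4 on glucose. Its level was 4488 ± 475 CPM on willow and 7.90 ± 4.34 CPM on glucose, and it had the closest willow replicates of the 4, which differed 1.16-fold. At 4 to 12 counts per glucose library, the glucose levels of the GH6 genes rest on few reads.

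All 4 genes passed edgeR's quasi-likelihood test as higher on willow, where 17.6% of the genes tested were called higher and 13.5% lower. The log2 fold change ± SE was 10.19 ± 0.67 for An12g02220 (edgeR adjusted p = 3.0e-11), the tenth largest increase of all genes tested. It was 9.70 ± 0.69 for cbhB (edgeR adjusted p = 6.1e-11) and 9.14 ± 0.55 for An08g01760 (adjusted p = 1.5e-11). The smallest of the 4 was that of cbhA, 8.42 ± 0.73 (edgeR adjusted p = 1.7e-09). The median over the 4 was 9.42, against -0.08 over all genes tested. The 95% intervals ran from 8.80 to 11.58 for An12g02220 and from 6.91 to 9.93 for cbhA, so the order of the 4 fold changes is within their error. With 1 library left out at a time, the values stayed between 8.05 (cbhA, without glucose replicate A) and 11.0 (An12g02220, without glucose replicate A), and each kept its call.

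**Figure D2:**
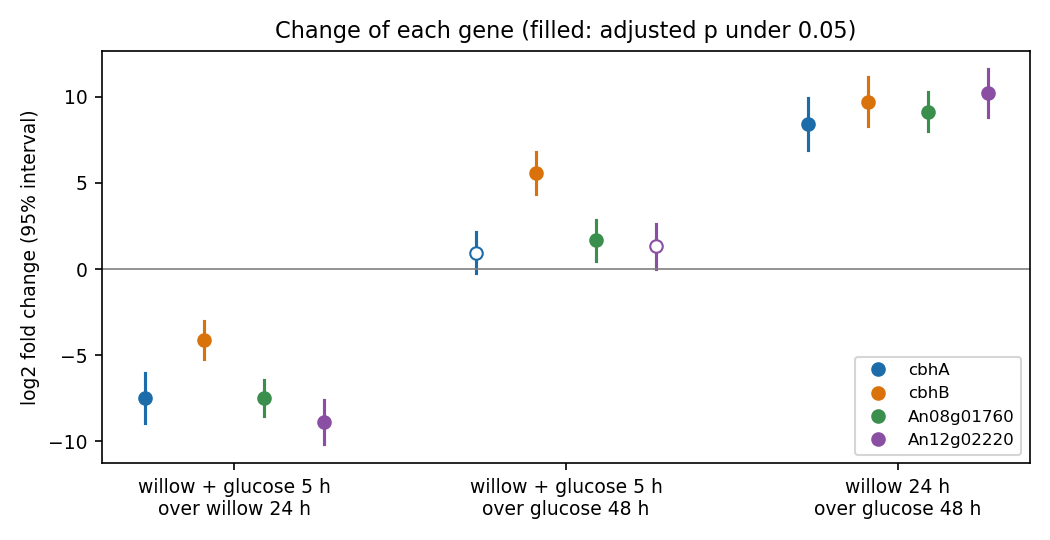
Log2 fold change of each gene in the 3 comparisons, with points for edgeR's estimate, bars for its 95% interval and filled points for an adjusted p under 0.05. The change of cbhB on glucose addition, -4.12, is the smallest of the 4, and its level after it is the farthest above that on glucose, at 5.58.

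Per kb of gene model, the levels on willow were 10424.5 ± 2491 CPM for cbhA, 9222 ± 3576 CPM for An12g02220, 7287 ± 3693 CPM for cbhB and 3631 ± 385 CPM for An08g01760. The first 3 in this order differed by less than their spread between replicates, and the order of cbhA and cbhB was not the same in both libraries. In willow A, An12g02220 led with 11750 CPM per kb, before cbhB with 9899 and cbhA with 8663. In willow B, cbhA led with 12186 CPM per kb, before An12g02220 with 6693 and cbhB with 4676. In both libraries An08g01760 was last, with 3359 (A) and 3903 (B) CPM per kb. On glucose, cbhA had 30.3 ± 11.3 CPM per kb, cbhB 8.75 ± 4.08, An12g02220 7.88 ± 5.16 and An08g01760 6.39 ± 3.51. There the last 3 did not differ beyond their spread, and cbhA was above them in both libraries. Lengths implied by the deposited values were 2212 and 2474 bp for cbhA and cbhB, and 1236 and 1427 bp for An08g01760 and An12g02220. The reference table gives 1515 and 1611 bp, and 1489 and 1885 bp, in the same order. The order on willow depends on this choice. With the reference lengths, cbhB led in willow A with 38.5% of the summed level of the 4 genes, before cbhA (32.0%) and An12g02220 (22.5%). In willow B these shares were 53.5% for cbhA, 21.6% for cbhB and 15.2% for An12g02220. An08g01760 stayed last in both.

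The second comparison asked how the genes differed between cultures given glucose for 5 h after 24 h on willow and separate cultures that had 24 h on willow alone. All 4 genes were lower after glucose addition, and 3 of them were within a few fold of their glucose level while cbhB was not. They were above it by 1.93-fold (cbhA), 2.49-fold (An12g02220) and 3.17-fold (An08g01760), the last called at the edge of the threshold (edgeR adjusted p = 0.0485). The design has no willow culture of equal total time without glucose, so the added glucose and the further time cannot be told apart.

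In the GH7 pair the genes differed most. Gene cbhA had 36 and 97 counts (44.5 and 224 CPM) in libraries A and B after glucose addition, against 8802 and 9740 counts (19162 and 26955 CPM) on willow. Its 2 libraries after glucose addition differed 5.05-fold, the widest replicate gap of any of the 4 genes in any condition. Gene cbhB had 1071 and 324 counts (1323 and 749 CPM) after glucose addition, against 11249 and 4180 counts (24490 and 11568 CPM) on willow. It was still the 88th and 171st most counted gene of the libraries with added glucose, and ranked 184th and 366th per kb. Both libraries with added glucose were below both willow libraries for each gene, an order that carries little weight alone with 2 libraries against 2.

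Both GH6 genes were at low levels after glucose addition. For An12g02220 there were 17 and 16 counts (21.0 and 37.0 CPM) after glucose addition, against 16768 and 9551 CPM on willow. For An08g01760 there were 16 and 14 counts (19.8 and 32.4 CPM) after glucose addition, against 4152 and 4824 CPM on willow. For both genes the libraries with added glucose lay far below those on willow.

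All 4 genes were called lower after glucose addition, where 20.5% of the genes tested were called lower and 17.2% higher. The log2 fold change was -8.87 ± 0.63 for An12g02220 (edgeR adjusted p = 1.8e-10), -7.47 ± 0.50 for An08g01760 (adjusted p = 1.7e-10) and -7.47 ± 0.70 for cbhA (adjusted p = 1.2e-08). For cbhB it was -4.12 ± 0.52 (edgeR adjusted p = 1.3e-06). The median over the 4 was -7.47, against 0.04 over all genes tested. Among all decreases, An12g02220 was 10th, An08g01760 45th, cbhA 47th and cbhB 224th in size. In the fit of all 6 libraries, the 95% interval of cbhB, from -5.20 to -3.04, did not meet that of any other member. The nearest began at -6.02 (cbhA). The calls held without any 1 library. The value of cbhA depended most on a library, at -6.64 without replicate A after glucose addition and -8.98 without replicate B. The same fits gave -4.545 and -3.73 for cbhB, so its distance from cbhA depends on these libraries and was smaller without replicate A. Without replicate A after glucose addition, 1496 genes in all were called in place of 2336.

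As a part of the mean willow level, 7.34% (A) and 4.16% (B) of the cbhB transcript was measured 5 h after glucose addition. The same share was 0.193% and 0.973% for cbhA, 0.440% and 0.721% for An08g01760, and 0.160% and 0.281% for An12g02220. In both libraries the share of cbhB was the highest of the 4 genes. Over the 1089 genes called higher on willow than on glucose the median share was 22.0%, and 866 of them had a higher share than cbhB. That share and the willow call use the same willow libraries.

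**Figure D3:**
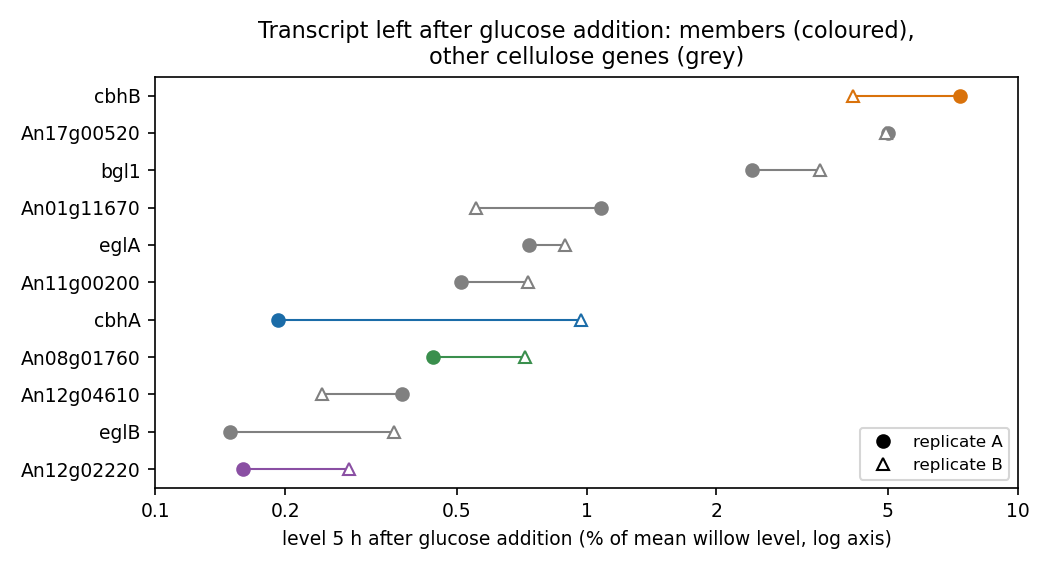
Level in each library 5 h after glucose addition as a percentage of the gene's mean willow level (log axis), for the 4 cellobiohydrolase genes in colour and the 7 other cellulose degradation genes called higher on willow in grey. The cbhB values, 7.34% and 4.16%, lie at the upper end with An17g00520 and bgl1, and those of An12g02220, 0.160% and 0.281%, at the lower end.

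The third comparison set the cultures with added glucose against those on glucose for 48 h, to ask whether the genes had come back to their glucose level. These conditions differ in the past growth on willow, in the time on glucose and in the willow still in the flask, and these cannot be told apart. The fold changes share their libraries with both comparisons above and are not independent of them.

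Transcripts of cbhB were 47.9-fold higher after glucose addition than on glucose, at 1323 and 749 CPM, against 28.8 and 14.5 CPM. The log2 fold change was 5.58 ± 0.60 (edgeR adjusted p = 2.8e-07), the 28th largest increase of all genes tested. Of the 4 members, 2 were called higher and 0 lower, where 10.0% of the genes tested were called higher and 8.87% lower. Leaving out 1 library at a time gave values from 5.12 to 6.14 for cbhB. Those fits called 722 genes in all without glucose replicate B, 631 without replicate A after glucose addition and 776 without replicate B after it, in place of 1167.

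The other 3 genes were within a few fold of their glucose level. An08g01760, at 19.8 and 32.4 CPM after glucose addition against 11.0 and 4.84 CPM on glucose, was called higher at the edge of the threshold (1.66 ± 0.59, edgeR adjusted p = 0.0485). That call was lost in 7 of 15 alternatives, among them the fits without glucose replicate B (1.17, adjusted p = 0.320), without replicate A after glucose addition (2.03, adjusted p = 0.0794) and without replicate B after it (1.32, adjusted p = 0.263). An12g02220, at 21.0 and 37.0 CPM against 16.5 and 6.04 CPM, did not pass the test (1.32 ± 0.64, 95% interval -0.003 to 2.64, edgeR adjusted p = 0.166), but was called without glucose replicate A (2.17, adjusted p = 0.0360). For cbhA the levels were 44.5 and 224 CPM after glucose addition, against 49.4 and 84.6 CPM on glucose, and they overlapped. Its log2 fold change was 0.95 ± 0.58 (95% interval -0.25 to 2.15, edgeR adjusted p = 0.291), with -0.60 (adjusted p = 0.622) without replicate B after glucose addition and a call at 1.74 (adjusted p = 0.0450) without replicate A. The intervals of cbhA and An12g02220 reach 2.15 and 2.64, so that a difference of that size from the glucose level cannot be set aside. The median over the 4 genes was 1.49, against 0.005 over all genes tested.

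The make-up of the 4 transcripts after glucose addition differed from that on willow and on glucose, with a larger share of cbhB. Per kb, cbhB held 91.3% and 66.4% of the summed level of the 4 genes in libraries A and B after glucose addition, 29.4% and 17.0% on willow, and 21.4% and 11.2% on glucose. Gene cbhA held 3.43% and 22.2% after glucose addition, 25.7% and 44.4% on willow, and 41.1% and 73.2% on glucose. The GH6 genes together held 5.24% and 11.4% after glucose addition, 44.9% and 38.6% on willow, and 37.5% and 15.6% on glucose. Between willow and glucose the shares of cbhA and of cbhB overlapped, while those of the GH6 genes together did not. The glucose shares rest on 77 (A) and 91 (B) counts of the 4 genes. Among the 4 genes, cbhB alone had a larger share after glucose addition than in any library of the other conditions. The shares of cbhA and of the GH6 genes together were smaller after glucose addition than in any such library. The 4 shares add up to a whole, so a larger share of cbhB lowers the others together, and these are no separate results.

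**Figure D4:**
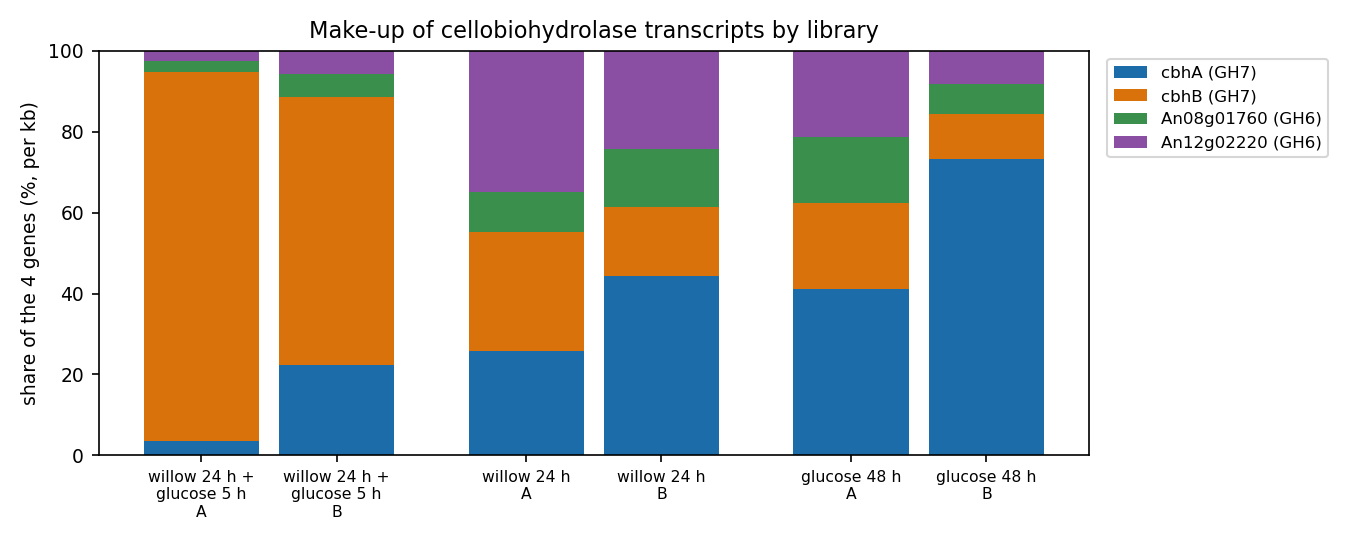
Share of each gene in the summed level (CPM per kb) of the 4 cellobiohydrolase genes, as stacked bars from 0 to 100% for each library. After glucose addition cbhB fills 91.3% (A) and 66.4% (B) of the bar, against at most 29.4% in any other library.

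Ratios of a pair of genes within a library need no scaling between libraries. The log2 ratio of cbhA over cbhB per kb was -4.71 (A) and -1.57 (B) after glucose addition, -0.19 and 1.38 on willow, and 0.93 and 2.66 on glucose. The ratio after glucose addition was below that of willow and of glucose in every library, with differences of the means of -3.74 and -4.93. For cbhA over An08g01760 the values were 0.31 and 1.91 after glucose addition, 1.37 and 1.64 on willow, and 1.26 and 3.13 on glucose. These overlapped in every comparison. For cbhA over An12g02220 they were 0.43 and 1.93, -0.44 and 0.86, and 0.91 and 3.05 in the same order. These overlapped in both comparisons with added glucose, but not between willow and glucose. The ratio of cbhB over An12g02220 was 5.14 and 3.50 after glucose addition, -0.25 and -0.52 on willow, and -0.01 and 0.39 on glucose. Between willow and glucose these 2 genes thus kept nearly the same ratio, with a difference of -0.57 that did not overlap but was small beside the 4.71 by which the ratio after glucose addition exceeded that on willow.

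Within family GH6, the log2 ratio of An08g01760 over An12g02220 was 0.12 and 0.02 after glucose addition, -1.81 and -0.78 on willow, and -0.35 and -0.08 on glucose. Both genes were thus at nearly equal levels per kb except on willow, where An12g02220 was higher in both libraries. All 6 pairs were compared in all 3 comparisons, 18 in all, by a two-sided exact permutation test over libraries. With 2 libraries against 2 this test cannot give a p under 0.333, and after Benjamini-Hochberg adjustment the lowest was 0.545, so none of these differences could pass it.

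**Figure D5:**
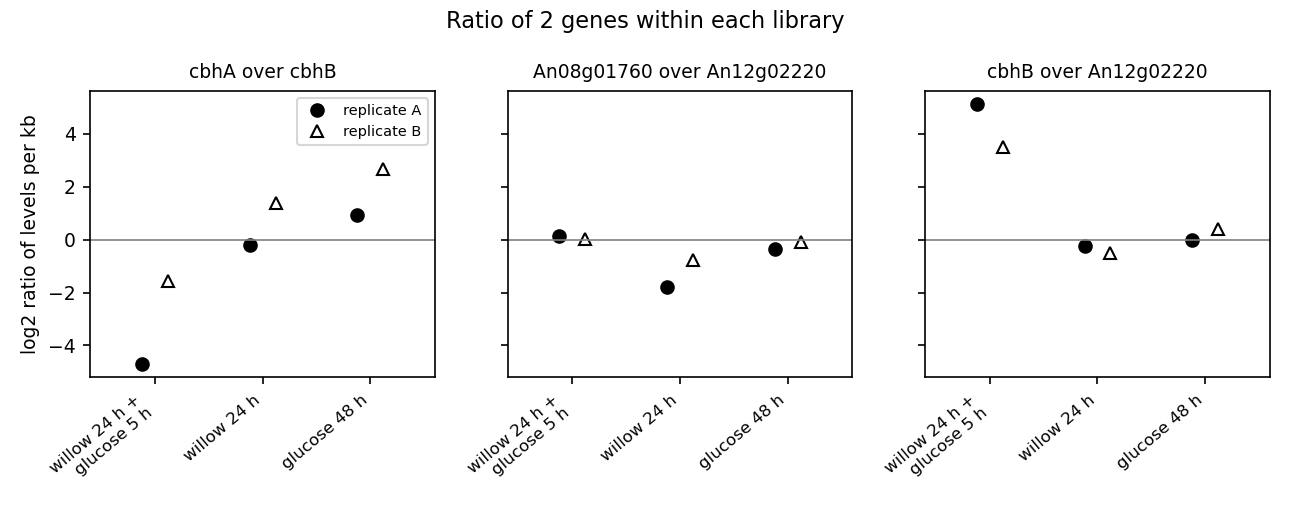
Log2 ratio of the levels per kb of 2 genes within each library, for 3 of the 6 pairs, with filled circles for replicate A and open triangles for replicate B. The ratio of cbhA over cbhB is lowest after glucose addition and is higher in replicate B than in replicate A in each condition, whereas the GH6 pair leaves 0 mainly on willow.

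Replicates A and B differed in opposite directions for the GH7 genes. Gene cbhA was higher in B than in A in each condition, by 2.25 on the log2 scale (prior count 2) after glucose addition, 0.49 on willow and 0.74 on glucose. Gene cbhB was lower in B than in A in each condition, with differences of -0.82, -1.08 and -0.85 in the same order. Of all genes tested, 15.5% were higher in B in all 3 conditions and 14.0% lower, so that neither pattern alone is rare. The GH6 genes had no such order: An12g02220 was lower in B on willow (-0.81) and on glucose (-1.08) but higher in B after glucose addition (0.73). The assigned share of reads was also lower in B in both willow conditions, and its part in these differences was not tested.

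Of 14 other identifiers listed as cellulose degradation genes, 10 were tested, and 7 were called higher on willow than on glucose, with none lower. Those not tested, An15g04570, An15g04900, An12g02540 and An04g08550, had at most 1 count in either willow library. The numbers for the 10 thus leave out listed genes that had almost no reads on willow. Of all genes tested, 17.6% were called higher and 13.5% lower. Not called were An16g06800 (0.24, edgeR adjusted p = 0.751), An08g05230 (-0.43, adjusted p = 0.636) and An14g02670 (1.50, adjusted p = 0.0906). The median log2 fold change of the 10 was 8.22, against 9.42 for the 4 cellobiohydrolase genes. The reference table gives symbols to 3 of the 7, the endoglucanase genes eglA and eglB (An07g08950) and the beta-glucosidase gene bgl1. Other naming of A. niger endoglucanases may differ, so eglB here means An07g08950 only. The others of the 7 were An01g11670, An12g04610, An17g00520 and An11g00200. They have no symbol in the reference table and stand in the list by identifier alone. Levels on willow against glucose were 17420 ± 2233 against 18.3 ± 7.08 CPM for eglB, 8059 ± 951 against 11.8 ± 4.68 CPM for eglA, and 8766 ± 765 against 64.1 ± 3.38 CPM for bgl1. Those of the genes without a symbol were 14260 ± 2002 against 17.0 ± 6.97 CPM for An12g04610 and 7261 ± 11.0 against 44.95 ± 15.1 CPM for An11g00200. For An17g00520 there were 242 and 148 counts on willow, against 0 and 1 on glucose. The log2 fold changes of the 7 genes ran from 7.09 (bgl1) to 10.23 (An01g11670).

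Where 20.5% of all genes tested were called lower after glucose addition and 17.2% higher, 8 of these 10 genes were lower than on willow and none higher. They were the same 7 and An14g02670 (-2.88 ± 0.79, edgeR adjusted p = 0.00610), which did not pass the threshold without willow replicate A (-2.57, adjusted p = 0.0908), without replicate A after glucose addition (-2.66, adjusted p = 0.0971) or on the deposited RPKM values (-1.46, limma-trend adjusted p = 0.0564). The log2 fold changes were -8.69 ± 0.62 for eglB (edgeR adjusted p = 1.8e-10) and -6.95 ± 0.50 for eglA (adjusted p = 1.8e-10), and -5.09 ± 0.45 for bgl1 (adjusted p = 4.8e-09). They were -8.30 ± 0.57 for An12g04610 and -7.35 ± 0.51 for An11g00200 (edgeR adjusted p = 1.8e-10 for both), and -4.32 ± 0.41 for An17g00520 (adjusted p = 1.2e-08). The share of the willow level that was measured after glucose addition was 5.75 ± 2.25% for cbhB, 4.97 ± 0.05% for An17g00520 and 2.95 ± 0.75% for bgl1. It was under 1% in the mean for the other 3 cellobiohydrolase genes and for the other 5 genes of the list that were called higher on willow. An14g02670, which was not called higher on willow, had 4.17 ± 0.65 CPM after glucose addition and 31.0 ± 8.56 CPM on willow, so that a larger part of its willow level was measured than for cbhB. Of the list, 4 genes were called above their glucose level after glucose addition, where 10.0% of all genes tested were called higher. They were eglA (2.46 ± 0.52, edgeR adjusted p = 0.00126), An01g11670 (3.33 ± 0.64, adjusted p = 4.8e-04), bgl1 (2.002 ± 0.42, adjusted p = 0.00126) and An17g00520. The last had 19 and 10 counts after glucose addition, against 0 and 1 on glucose. On the deposited RPKM values the calls of bgl1 (1.33, limma-trend adjusted p = 0.122) and An17g00520 (1.57, adjusted p = 0.110) were lost.

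The gene next to cbhB in the gene order of the reference table, An01g11670, had 5649 and 2502 counts on willow, against 10 and 2 on glucose. It had 84 and 23 counts after glucose addition, where cbhB had 1071 and 324. Its level was 78.5 ± 35.8 CPM after glucose addition, 9611 ± 3800 CPM on willow and 8.07 ± 7.99 CPM on glucose. The log2 fold change after glucose addition was -6.90 ± 0.58 (edgeR adjusted p = 2.2e-09), against -4.12 ± 0.52 for cbhB (edgeR adjusted p = 1.3e-06), and the difference between them was not tested. The gene on the other side of cbhB, An01g11650, had at most 7 counts in any library.

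Of the genes tested among the 2 on each side of the other members, none was called higher on willow than on glucose. An07g09325, An08g01740 and An08g01780 did not pass the filter on low counts, and An12e02230, a ribosomal RNA gene, was not analysed here. Beside An08g01760, An08g01750 had 544 ± 96.3 CPM after glucose addition, 490 ± 22.5 CPM on willow and 589 ± 2.50 CPM on glucose, and passed no test. Beside cbhA, An07g09340 was higher after glucose addition than on willow (2.15 ± 0.72, edgeR adjusted p = 0.0223), a call lost without either willow replicate, without either replicate after glucose addition (adjusted p from 0.0580 to 0.0811) and with DESeq2 (adjusted p = 0.0716). Beside An12g02220, An12g02210 had 9.03 ± 2.95 CPM after glucose addition, 40.3 ± 13.9 CPM on willow and 67.8 ± 6.94 CPM on glucose. It was lower after glucose addition than on willow (-2.08 ± 0.58, edgeR adjusted p = 0.00698), a call lost without willow replicate A (-1.67, adjusted p = 0.0858) and on the deposited RPKM values (-1.11, limma-trend adjusted p = 0.232). It was also lower after glucose addition than on glucose (-2.81 ± 0.54, edgeR adjusted p = 5.2e-04). Next to it, An12g02200 was lower on willow than on glucose (-2.41 ± 0.83, edgeR adjusted p = 0.0292), a difference that did not pass without glucose replicate A (-1.65, adjusted p = 0.414), without willow replicate A (-1.99, adjusted p = 0.150) or with DESeq2 (-2.38, adjusted p = 0.111). It had 0 and 1 counts after glucose addition, against 35 and 16 on glucose.

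Likeness of pattern was measured as the root mean square difference in log2 CPM, centred on each gene's mean, over the 6 libraries. The genes most like An12g02220 were An09g00840 (0.19), eglB (0.25) and An12g04610 (0.46). Those most like An08g01760 were a gene model without an identifier (0.26), eglA (0.35) and An18g05480 (0.43). Those most like cbhA were the endoxylanase gene xynA (0.36), axhA, which encodes an arabinofuranohydrolase of xylan (0.41), and An16g01880 (0.41). The nearest genes to cbhB were farther off, An12g09270 (0.78), An01g01870 (0.88) and An01g04560 (0.91).

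No member was among the 3 genes most like another. The measure takes in differences between replicates A and B as well as between conditions. Members were not ranked beyond those 3 places, so the distances between them have no background to be read against. The GH6 genes differed from each other by 0.68, cbhA from An08g01760 by 0.73 and from An12g02220 by 0.99. Gene cbhB was 2.32 from cbhA, 2.12 from An12g02220 and 1.81 from An08g01760. The 3 genes nearest to cbhB had 125 ± 28.8, 685 ± 98.6 and 120 ± 0.32 CPM after glucose addition. On glucose, An12g09270, An01g01870 and An01g04560 had 5.85 ± 1.43, 35.8 ± 11.4 and 3.95 ± 2.17 CPM. Their choice by likeness to cbhB over the same 6 libraries fixes this direction.

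The 2 regulators were called higher on willow and lower after glucose addition, with smaller fold changes than the members. Transcripts of xlnR, for the activator, were at 41.4 ± 9.53 CPM after glucose addition, 285 ± 3.396 CPM on willow and 22.7 ± 10.7 CPM on glucose. They were higher on willow than on glucose (3.63 ± 0.41, edgeR adjusted p = 1.3e-07) and lower after glucose addition than on willow (-2.75 ± 0.39, adjusted p = 6.0e-06). Transcripts of creA, for the repressor, were at 40.2 ± 7.78 CPM after glucose addition, 92.8 ± 1.88 CPM on willow and 34.9 ± 8.70 CPM on glucose. They were called higher on willow than on glucose (1.40 ± 0.43, edgeR adjusted p = 0.0144), but not without glucose replicate A (1.13, adjusted p = 0.136), with total counts as the library size (0.97, adjusted p = 0.0815) or on the deposited RPKM values (0.24, limma-trend adjusted p = 0.777). The call of a decrease of creA after glucose addition (-1.18 ± 0.43, edgeR adjusted p = 0.0348) was lost in 9 of 14 alternatives, each fit without a willow library or one with added glucose included. Against glucose, cultures with added glucose did not pass the test for xlnR (0.88 ± 0.43, edgeR adjusted p = 0.174) or creA (0.22 ± 0.44, adjusted p = 0.805).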

How the data were processed

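The authors deposited 1 table per library with counts, whole numbers of reads per gene model, and RPKM values, per the file headers. The submitters' processing notes name HTSeq (no version). No aligner or strand setting was stated in the labels or headers. The deposited RPKM values are scaled to all reads, uncounted ones included: for genes over 20 counts, 100% of the lengths implied by that sum were whole numbers (tolerance 0.01 bp), against 2.01% by the sum over genes. These lengths were used for levels per kb. The 5 entries that name no gene, 96.9% to 98.5% of reads, were left out. Multiply aligned reads were not counted, which makes values of close paralogues uncertain.

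Counts of all 6 libraries were fitted with edgeR 4.0.16 in R 4.3.3 (TMM, filterByExpr with a minimum count of 10 and a minimum total of 15, quasi-likelihood test, two-sided, Benjamini-Hochberg adjustment over 6181 genes, threshold 0.05), with 1 mean per condition and 3 residual degrees of freedom. The test also draws on the spread of all genes. Intervals used its total degrees of freedom, which exceed these 3, so intervals and p-values rest on that sharing. Standard errors are the log2 fold change divided by the root of F. Alternatives used other scalings and filters, DESeq2 1.42.0, limma 3.58.1 on log2(RPKM + 0.1), only the groups compared, a replicate block, and each library left out. The procedure was also run on simulated counts with the same spread for all genes, a setting unlike these data that cannot vouch for the calls. Within-library ratios had 0.5 added to each count. Replicates differed beyond sampling noise in each condition (chi-square per degree of freedom 7.35 to 12.9).

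Genes named are the 4 members, the listed cellulose genes, xlnR and creA, listed conidiation genes, 2 neighbours on each side, and the 3 genes most alike in pattern. The members and lists were chosen with earlier results of these data known. Symbols and gene order come from RefSeq (ASM285v2), which lists 14069 of 14114 identifiers. Its build differs from that of the files, so no coordinates are given.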

Additional observations from a re-analysis of the deposited data

How the results depend on the processing

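The calls of all 4 genes on willow and after glucose addition, and of cbhB against glucose, kept their direction and side of the threshold in all 15 alternatives. Against glucose after glucose addition, An08g01760 lost its call with total counts as library size (1.52), upper quartile scaling (1.66), only both groups in the fit (1.66) and the deposited RPKM (0.90), and ranged from 1.17 to 2.32 without 1 library. In that comparison cbhA ranged from -0.60 to 1.74 and An12g02220 from 0.75 to 2.17 without 1 library. The cause was not tested. Requiring 50 counts in 2 libraries, with fewer genes tested, called 1056 genes on willow against glucose, 1297 after glucose addition against willow and 769 against glucose, where the deposited RPKM called 735, in place of 1925, 2336 and 1167 genes in these comparisons. Without 1 library, 1496 to 2501 genes were called after glucose addition against willow and 631 to 1439 against glucose. With total counts, the middle of all log2 fold changes (their median) shifted by -0.43 (willow against glucose), 0.30 (after glucose addition against willow) and -0.14 (against glucose). With the deposited RPKM it shifted by -0.93, 0.47 and -0.46. With upper quartile scaling it shifted by -0.12, 0.12 and -0.005. The labels do not say that A and B mark a shared batch, and deviations of same-lettered libraries correlated at -0.01 to 0.17. With a replicate block, 2004, 2432 and 1292 genes were called in the 3 comparisons, and no call of a member changed. The mean willow share was 12.1% for An08g01760 and 29.6% for An12g02220 per kb, and 7.77% and 22.0% when not divided by length. With the lengths of the reference table, an alternative chosen after seeing the data, it was 8.39% and 18.9%, and cbhB led in willow A. Depth limits the glucose levels of the GH6 genes, which rest on 4 to 12 counts.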
